A study of Oncorhynchus mykiss with 6 samples.

Results

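Among the 5045 liver genes listed as changed in heat-stressed rainbow trout (Oncorhynchus mykiss), 76 were taken as immune, complement or cytokine genes. They were chosen by annotation. A gene was a member when its KEGG class was the immune system, or when its symbol named complement c3, an interleukin or its receptor, a chemokine, a gene of the tumour necrosis factor (TNF) group, an interferon regulatory factor (IRF), a suppressor of cytokine signalling (SOCS), a guanylate-binding protein (GBP) or an NF-kB gene. The symbol brought in 43 members and the KEGG class alone 33. The class was read from a column cut at 8 characters, so only the class shown there counted. Other genes of these pathways in the list did not meet the rule and are given separately. The 76 rows carry 60 distinct symbols, of which 12 stand for several gene copies. Copies are numbered here by falling mean level.

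Liver RNA was sequenced from a heat group, at 24 °C for 8 h, and from a control group at 18 °C, with 3 libraries in each. No allele, strain or other agent is named for either group, and nothing in the labels ties each library to a fish of its own, so every p-value here reflects library-to-library spread alone, possibly of technical origin. Levels are in FPKM, fragments scaled for transcript length and library size, which allows comparison between genes. Fold changes are heat over control from limma-voom unless stated. Counts over the listed genes lay between 2663575 and 3586127 in heat and between 1409460 and 1421082 in control. Whole-library depth is unknown.

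Vertebrate liver makes most of the circulating complement proteins and answers cytokines, the secreted signals of immune cells. Many cytokine receptors signal through JAK kinases and STAT factors, and SOCS proteins, themselves induced by the signal, shut it off. Toll-like and TNF receptors act largely through NF-kB, a family of transcription factors held inactive by IkB proteins, whose genes are in turn NF-kB targets.

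Most members were higher in heat. Of the 71 members that passed the count filter, 58 rose and 13 fell at an adjusted p under 0.05 with limma-voom, adjusted over all 4766 tested genes. All genes of the list had been selected by the authors as changed, so that 100% of those tested were called, 58.1% of them higher and 41.9% lower in heat. The share of members that rose was 81.7%. The median log2 fold change was 1.35 over the tested members and 1.13 over all tested genes. In 26 of the 71 the change was at least 4-fold, 21 of them upward and 5 downward, against 28.1% of all tested genes in either direction, 19% upward and 9.02% downward. The FPKM values of the groups did not overlap for any member, as for 99.4% of all listed genes. The largest adjusted p of a tested member was 0.0073 with limma-voom, that of CLEC10A. Of the 5 untested members 2 were higher and 3 lower in heat. When libraries were instead scaled by their median count ratio, 39 members rose, 13 fell and 19 were not called, and over all tested genes 1733 rose and 1996 fell. In bulk tissue, more cells of a type and more RNA per cell cannot be told apart.

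**Figure D1:**
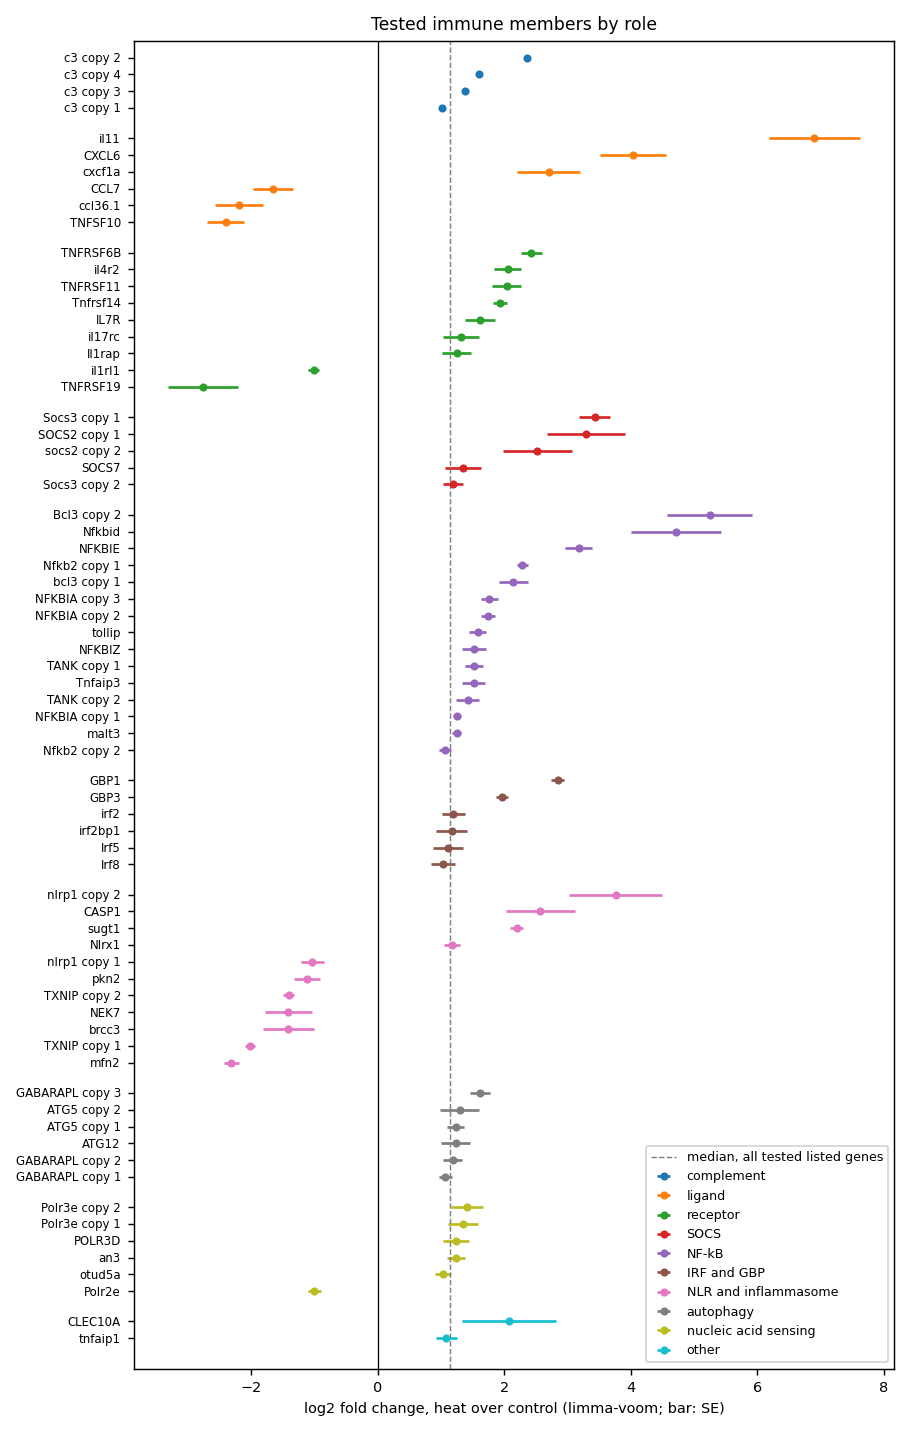
Log2 fold change, heat over control, of 70 of the 71 tested members grouped by role, with the standard error as a bar; the dashed line is the median of all tested listed genes, 1.13. The SOCS, NF-kB, IRF and GBP, complement and autophagy members all lie right of 0, whereas the ligands and the NLR and inflammasome members lie on both sides.

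The ligands went both ways. Of the 6 tested, il11, CXCL6 and cxcf1a rose and CCL7, ccl36.1 and TNFSF10 fell. Among all tested genes 58.1% were higher and 41.9% lower in heat, so a split of this kind is not particular to the ligands. The interleukin il11, a cytokine of the interleukin-6 family, had 2.78, 3.596 and 3.08 FPKM in heat libraries 1 to 3, against 0.118, 0 and 0 FPKM in control libraries 1 to 3. It was thus close to undetected at 18 °C and present in every heat library. Its log2 fold change was 6.90 ± 0.72 (SE), the largest of the members, with an adjusted p of 2.29e-12 by limma-voom. All 5 of its control counts lay in control replicate 1. From the 510 heat and 5 control counts the ratio was 79.8 (95% exact interval 34.0 to 246.8, counting error only). Leaving out control replicate 1 made the rise at least 89.0-fold, with 3 counts over the group taken as the floor and the heat counts as exact. Leaving out control replicate 3 gave a fitted log2 fold change of 6.31.

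The chemokine gene CXCL6, which in mammals encodes an attractant of neutrophils, had 2.18, 2.38 and 2.52 FPKM in heat, against 0.114, 0.138 and 0.14 FPKM in control. The cut description of this gene in the table does not name a chemokine. It rose 16.3-fold, from 14 counts over the control libraries. The chemokine cxcf1a, a member of a CXC branch known from fish, had 9.84, 5.60 and 8.11 FPKM in heat, against 0.822, 0.659 and 2.57 FPKM in control. It rose 6.48-fold, with control replicate 3 well above the other two control libraries. The cytokine gene tnf had 0.498, 0.271 and 0.441 FPKM in heat and 0.046, 0 and 0.089 FPKM in control. With 35 heat and 3 control counts it was too low for the test. The ratio of its counts was 9.13 (95% exact interval 2.88 to 46.4). It was 6.11 (1.93 to 31.05) without control replicate 2 and 18.1 (3.04 to 735.3) without control replicate 3.

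The ligands that fell were 2 chemokines of the CC type and a death ligand. CCL7, an attractant of monocytes in mammals, had 0.923, 0.905 and 0.75 FPKM in heat, against 2.37, 3.28 and 2.697 FPKM in control. ccl36.1 had 0.382, 0.47 and 0.148 FPKM in heat, against 1.15, 1.94 and 1.37 FPKM in control. They fell 3.15-fold and 4.59-fold. Both carry the same first KEGG orthology entry and the same cut description, so the name CCL7 is uncertain. TNFSF10, known as TRAIL, a TNF-family ligand that can trigger cell death, had 0.384, 0.624 and 0.335 FPKM in heat, against 2.23, 2.31 and 2.41 FPKM in control. It fell 5.31-fold, and no heat library came near the control range. Among the listed genes CCL7 and ccl36.1 thus fell while CXCL6 and cxcf1a rose, too few genes for a pattern of either chemokine class.

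**Figure D2:**
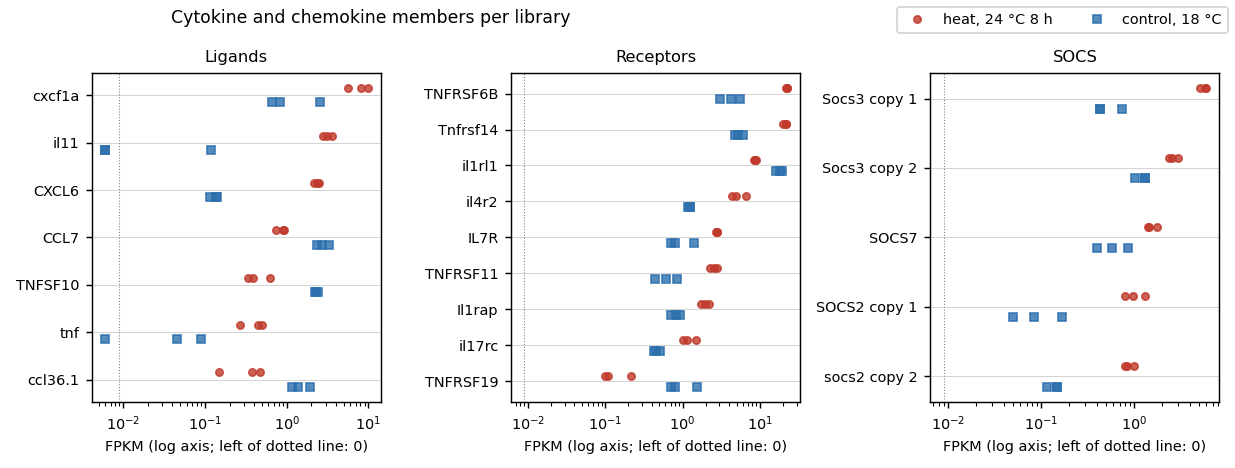
FPKM in each library (log axis) of the cytokine and chemokine ligands, their receptors and the SOCS genes; circles are the 3 heat libraries, squares the 3 control libraries, and points left of the dotted line are 0. For il11 the heat libraries sit between 2.78 and 3.596 FPKM while 2 control libraries are at 0, and TNFSF10, CCL7, ccl36.1, il1rl1 and TNFRSF19 have their heat points on the left.

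Of the 9 receptor genes, 7 rose and 2 fell, against 58.1% higher among all tested genes. The most abundant in heat was TNFRSF6B, a soluble decoy receptor that binds ligands of the TNF family in humans. It had 22.4, 22.4 and 22.0 FPKM in heat, against 5.47, 3.04 and 4.21 FPKM in control. Its log2 fold change was 2.43 ± 0.16 (SE). The row listed as Tnfrsf14 had 21.5, 21.8 and 19.8 FPKM in heat, against 4.83, 5.28 and 6.09 FPKM in control, a 3.82-fold rise. That symbol names a receptor of lymphocyte co-signalling in mammals. The cut description of this row does not tell TNF receptors apart, so its identity rests on the symbol and is uncertain. TNFRSF11, a symbol that fills the 8 characters of the column and may be cut short, rose 4.10-fold, with 2.82, 2.27 and 2.53 FPKM in heat and 0.438, 0.859 and 0.615 FPKM in control.

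The interleukin receptor il4r2, a receptor chain for interleukin-4, had 4.35, 6.59 and 4.96 FPKM in heat, against 1.17, 1.24 and 1.26 FPKM in control. It rose 4.16-fold. The gene listed as IL7R had 2.81, 2.83 and 2.73 FPKM in heat, against 0.805, 1.41 and 0.711 FPKM in control, a 3.06-fold rise. The deposited table gives it the same KEGG orthology entry as il4r2 and an uncharacterised description, so its name is uncertain. Il1rap, the shared accessory chain of interleukin-1 family receptors, and il17rc, a chain of the interleukin-17 receptor, rose 2.37-fold and 2.49-fold. Scaling by the median ratio ended both calls (limma-voom adjusted p = 0.148 and 0.152). Il1rap had 1.95, 2.22 and 1.72 FPKM in heat, against 0.7, 0.921 and 0.817 FPKM in control. il17rc had 1.02, 1.47 and 1.16 FPKM in heat, against 0.434, 0.508 and 0.452 FPKM in control.

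The receptors that fell were il1rl1 and TNFRSF19. il1rl1, known as ST2, the receptor of interleukin-33 in mammals, had 8.63, 8.93 and 8.52 FPKM in heat, against 19.2, 18.3 and 15.9 FPKM in control. It fell 2.02-fold, and at 17.8 ± 1.67 FPKM (SD, n = 3) it was the most abundant of the listed receptors in the control group. TNFRSF19 had 0.1, 0.213 and 0.11 FPKM in heat, against 0.718, 1.53 and 0.793 FPKM in control. It fell 6.81-fold. Of other cytokine receptor genes in the list 2 rose and 2 fell, against 58.1% higher among all tested genes. ifngr2b, an interferon-gamma receptor chain, rose 3.63-fold and csf3r rose 2.11-fold. LEPR, the leptin receptor gene, fell 2.82-fold and csf1r1 fell 5.22-fold. The ligand gene thpo, for thrombopoietin, fell 2.53-fold.

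All 5 SOCS genes rose, against 58.1% higher among all tested genes. Their summed level was 11.7 ± 0.15 FPKM in heat and 2.59 ± 0.04 FPKM in control (SD, n = 3). Socs3 copy 1, the feedback inhibitor best known downstream of interleukin-6 family cytokines, had 5.97, 5.74 and 5.16 FPKM in heat, against 0.427, 0.427 and 0.739 FPKM in control. Its log2 fold change was 3.43 ± 0.25 (SE), with an adjusted p of 5.63e-18 by limma-voom. Socs3 copy 2 had 2.38, 2.54 and 2.94 FPKM in heat, against 1.30, 1.02 and 1.30 FPKM in control, a 2.28-fold rise. In control copy 2 was the more abundant of the pair, and in heat copy 1 was.

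SOCS2, an inhibitor of growth hormone signalling, was listed in 2 copies. The first had 0.792, 0.978 and 1.30 FPKM in heat, against 0.084, 0.167 and 0.05 FPKM in control. The second, written socs2, had 0.987, 0.83 and 0.807 FPKM in heat, against 0.148, 0.148 and 0.115 FPKM in control. They rose 9.75-fold and 5.72-fold, from 11 and 14 control counts. SOCS7 had 1.40, 1.74 and 1.46 FPKM in heat, against 0.585, 0.854 and 0.405 FPKM in control, and rose 2.55-fold. Scaling by the median ratio ended the calls of SOCS7 and Socs3 copy 2 (limma-voom adjusted p = 0.129 and 0.0793).

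Of the 6 other listed genes of the JAK-STAT pathway, 4 rose, 1 fell and 1 was too low to test. Among all tested genes 58.1% were higher. Both copies of jak1, a kinase of many cytokine receptors, rose, the more abundant one with 3.25, 3.35 and 3.20 FPKM in heat, against 0.816, 1.24 and 0.962 FPKM in control. CISH, another feedback inhibitor of the SOCS family, rose 4.54-fold and the kinase gene PIM1 rose as well. PTPN6, a phosphatase that restrains cytokine receptors, fell 2.15-fold. No STAT gene was among the listed genes.

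All 15 tested members of the NF-kB pathway rose, against 58.1% higher among all tested genes, and the untested Bcl10 was lower in heat. Their summed level was 277 ± 4.59 FPKM in heat and 100.4 ± 4.13 FPKM in control (SD, n = 3). The DNA-binding subunit gene Nfkb2 was listed in 2 copies. Copy 1 had 17.2, 17.0 and 17.4 FPKM in heat, against 3.08, 3.87 and 3.67 FPKM in control, a 4.87-fold rise. Copy 2 had 7.06, 7.41 and 7.15 FPKM in heat, against 3.04, 3.55 and 3.78 FPKM in control. It rose 2.08-fold, a call lost with scaling by the median ratio (limma-voom adjusted p = 0.117). The 2 copies stood at nearly the same level in control and far apart in heat.

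Several of these members encode inhibitors of NF-kB. NFKBIA, the IkB-alpha gene, was listed in 3 copies. The most abundant had 91.1, 93.9 and 89.7 FPKM in heat, against 38.5, 39.6 and 37.4 FPKM in control, a 2.38-fold rise. Copy 2 had 26.4, 25.1 and 24.6 FPKM in heat, against 6.85, 8.23 and 7.79 FPKM in control. Copy 3 had 24.8, 21.9 and 20.1 FPKM in heat, against 7.23, 7.33 and 5.37 FPKM in control. These less abundant copies rose 3.34-fold and 3.40-fold. NFKBIE, the IkB-epsilon gene, had 9.28, 9.51 and 9.89 FPKM in heat, against 1.46, 1.02 and 0.769 FPKM in control. Its log2 fold change of 3.17 ± 0.21 (SE) exceeded those of all 3 NFKBIA copies. Tnfaip3, whose product A20 is a feedback inhibitor of the pathway, had 2.76, 2.29 and 2.19 FPKM in heat, against 0.88, 0.789 and 0.874 FPKM in control, a 2.86-fold rise.

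The nuclear IkB proteins, which bind NF-kB on DNA and change its activity there, included the largest rises among the NF-kB members, those of Bcl3 copy 2 and Nfkbid. Bcl3 copy 2 had 1.45, 1.47 and 1.43 FPKM in heat, against 0.049, 0.016 and 0.032 FPKM in control. It rose 37.9-fold, from 6 control counts. bcl3 copy 1 had 3.41, 3.70 and 3.67 FPKM in heat, against 0.944, 0.945 and 0.576 FPKM in control, a 4.42-fold rise. Nfkbid had 0.553, 0.454 and 0.652 FPKM in heat, against 0, 0.03 and 0 FPKM in control. The fitted rise was 26.3-fold, and the ratio of its 72 heat counts to 1 control count was 56.3 (95% exact interval 9.79 to 2255). The ratio was 37.2 without control replicate 3, and leaving out control replicate 2 made the rise at least 12.6-fold, on the same floor of 3 counts. NFKBIZ had 4.09, 4.20 and 4.89 FPKM in heat, against 1.997, 1.93 and 1.16 FPKM in control, a 2.86-fold rise.

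Among adaptors and regulators of the pathway malt3, TANK and tollip rose, and the untested Bcl10 was lower in heat. malt3, a paracaspase gene whose mammalian relative acts with BCL10, had 49.9, 50.8 and 49.4 FPKM in heat, against 20.2, 22.4 and 20.7 FPKM in control, a 2.37-fold rise. tollip, an inhibitor of Toll-like and interleukin-1 receptor signalling, had 23.0, 22.4 and 20.7 FPKM in heat, against 7.48, 8.57 and 6.31 FPKM in control, a 2.98-fold rise. TANK, a TRAF-binding regulator, rose 2.86-fold and 2.67-fold in its copies. Copy 1 had 12.9, 12.6 and 12.99 FPKM in heat, against 5.25, 3.34 and 5.09 FPKM in control. Bcl10 had 0.184, 0.041 and 0.168 FPKM in heat, against 1.10, 0.476 and 0.232 FPKM in control. From 11 heat and 38 control counts its level was 4.42-fold lower in heat (95% exact interval 2.21 to 9.58), and 2.61-fold lower (1.12 to 6.27) without control replicate 1.

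**Figure D3:**
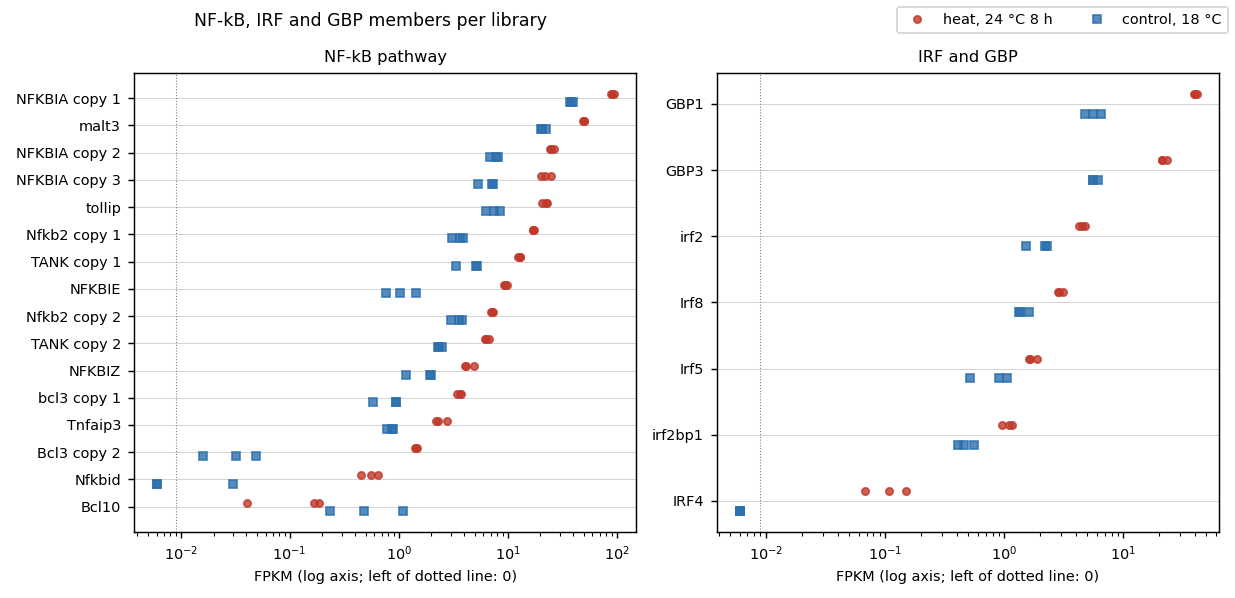
FPKM in each library (log axis) of the NF-kB pathway members and of 7 of the 8 IRF and GBP members; circles are the 3 heat libraries, squares the 3 control libraries, and points left of the dotted line are 0. All members drawn but Bcl10 have the heat libraries on the right, NFKBIA copy 1 near 91.6 FPKM on average and IRF4 at 0 in all control libraries.

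Beyond the members, a list of 41 genes covered the Toll-like receptor, TNF receptor and NF-kB pathways together with NOD-like receptors. Of the 38 tested, 26 rose and 12 fell, a share of 68.4% higher against 58.1% of all tested genes. Divided after the values had been seen, the list held 14 NOD-like receptor genes, of which 5 rose and 7 fell among 12 tested, and 27 others, of which 21 rose and 5 fell among 26 tested. Relb, the partner of the product of Nfkb2, rose 15.6-fold and 7.23-fold in its copies, the more abundant one with 44.6, 42.6 and 43.4 FPKM in heat, against 2.64, 2.79 and 2.92 FPKM in control. RELA rose 2.56-fold, the flagellin receptor gene tlr5 7.35-fold and the adaptor gene myd88 4.08-fold. Every fall of at least 4-fold in the list was that of a gene named Nlrc3, after an NLR that restrains immune signalling in mammals. Of its 7 listed rows 5 fell, by 3.07-fold to 5.93-fold, and 2 rose, by 2.90-fold and 4.77-fold. Among the others tlr3, a receptor of double-stranded RNA, fell 2.58-fold and chuk, a kinase that acts on IkB, fell 2.08-fold.

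The IRF and GBP genes were all higher in heat, with IRF4 too low to test. The 7 of 7 tested compare with 58.1% higher among all tested genes. GBP genes encode GTPases known for their induction by interferon. GBP1 had 40.1, 39.0 and 41.3 FPKM in heat, against 4.80, 5.63 and 6.46 FPKM in control, a log2 fold change of 2.84 ± 0.11 (SE). GBP3 had 21.1, 21.1 and 23.2 FPKM in heat, against 5.56, 5.55 and 6.14 FPKM in control, a 3.88-fold rise. Together these 2 genes made up most of the summed level of the group, 76.8 ± 1.48 FPKM in heat and 16.6 ± 0.96 FPKM in control (SD, n = 3).

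The IRF transcription factor genes described here had lower levels than the GBP genes in both groups. Irf8, a factor of myeloid cells in mammals, had 2.87, 3.14 and 2.81 FPKM in heat, against 1.62, 1.34 and 1.35 FPKM in control. Irf5, which acts downstream of Toll-like receptors, had 1.61, 1.66 and 1.89 FPKM in heat, against 0.904, 1.05 and 0.513 FPKM in control. They rose 2.04-fold and 2.15-fold. irf2 had 4.76, 4.27 and 4.53 FPKM in heat, against 2.22, 1.53 and 2.28 FPKM in control, and irf2bp1, a corepressor that binds it in mammals, had 0.969, 1.17 and 1.10 FPKM in heat, against 0.41, 0.556 and 0.457 FPKM in control. These rises were 2.28-fold and 2.24-fold. Scaling by the median ratio ended the calls of Irf8, Irf5, irf2 and irf2bp1 (limma-voom adjusted p = 0.475, 0.395, 0.135 and 0.281).

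IRF4, a factor of lymphocytes in mammals, was listed at 0.149, 0.109 and 0.068 FPKM in heat and at 0 in the 3 control libraries. Its 17 heat counts, taken as exact, put it at least 4.43-fold above control on the floor of 3 counts. When any one control library was left out it was at least 2.93-fold to 2.97-fold above control. Of 8 other listed interferon-related genes, 6 rose and 2 fell, against 58.1% higher among all tested genes. Ifitm3, an antiviral membrane protein gene, rose 7.76-fold, with 122, 115.7 and 103 FPKM in heat, against 14.2, 15.02 and 14.7 FPKM in control. IFI44L and a copy of TRIM25 fell, while the other 2 copies of TRIM25 rose. The type I interferon gene ifn5 had 15 counts in the heat libraries and 0 in the control libraries, too few to test. Of 15 listed genes of antigen presentation, 13 rose and 2 fell, against 58.1% higher among all tested genes. However, 8 of the 15 encode the calcium-binding chaperones calreticulin and calnexin of the endoplasmic reticulum.

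Complement c3, the central protein of the complement cascade, gave the most abundant members. Its 4 listed copies summed to 1276 ± 49.97 FPKM in heat and 449 ± 18.9 FPKM in control (SD, n = 3), against a sum of 634 ± 10.5 FPKM in heat and 337 ± 4.87 FPKM in control for the other 72 members. Copy 1 had 465, 498 and 507 FPKM in heat, against 246, 247 and 233 FPKM in control, a 2.02-fold rise. Copy 2 had 430.1, 471 and 468 FPKM in heat, against 93.6, 91.7 and 81.8 FPKM in control, a 5.11-fold rise. Copy 3 had 165, 160.0 and 167 FPKM in heat, against 59.8, 68.9 and 62.2 FPKM in control. Copy 4 had 159, 167 and 170.2 FPKM in heat, against 56.7, 55.4 and 50.7 FPKM in control. These last copies rose 2.59-fold and 3.04-fold. The rise of copy 2 brought it close to copy 1, so that it made up 35.8% of the summed c3 level in heat and 19.8% in control, while copy 1 made up 38.4% in heat and 53.9% in control.

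Other complement genes were few in the list. cfb, which forms the alternative pathway convertase with C3, rose 2.16-fold and was more abundant than any c3 copy, with 1478, 1485 and 1512 FPKM in heat, against 694, 724 and 655 FPKM in control. CD46, named for a membrane regulator of complement, rose 2.91-fold. clu, a soluble regulator, rose 8.13-fold from 14 control counts, and cd59, an inhibitor of the membrane attack complex, fell 3.83-fold to 38 heat counts. Both were low, with at most 1.82 FPKM for clu and 2.31 FPKM for cd59 in any library. Of 10 listed genes of coagulation, 9 rose and 1 fell, against 58.1% higher among all tested genes. The 2 listed genes named FGA or fga, for the fibrinogen alpha chain, rose 4.87-fold and 4.05-fold, and the coagulation factor gene F10 fell 3.41-fold.

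**Figure D4:**
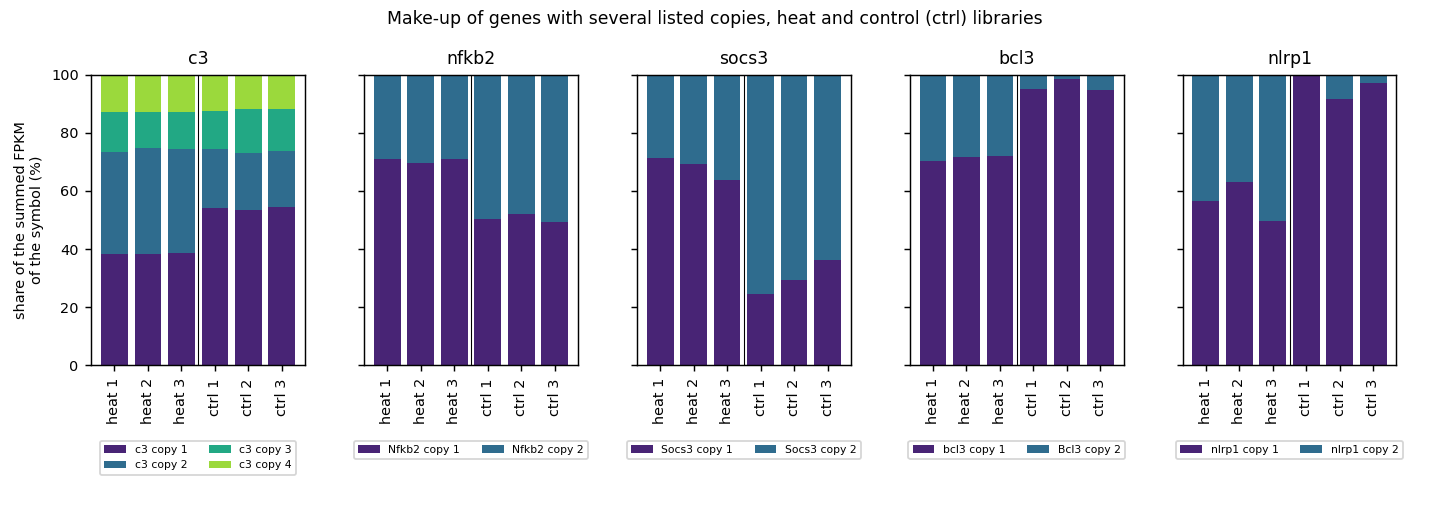
Share of each listed copy in the summed FPKM of its symbol (percent) in the 3 heat and the 3 control libraries, for c3, Nfkb2, Socs3, bcl3 and nlrp1. Socs3 copy 1 holds 68.2% of the sum in heat and 30.1% in control on average, and nlrp1 copy 2 holds 43.6% in heat and 3.84% in control.

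For the 12 symbols with several copies, the log2 ratio of each further copy to the most abundant one was compared between heat and control, 16 comparisons in all. The heat and control ratios did not overlap in 11 of them. The same share was not computed for the other symbols with several copies in the list. Whether 11 of 16 is particular to immune genes is therefore not known. With 3 libraries against 3, the exact two-sided permutation p cannot go below 0.1, and no comparison passed, at a Benjamini-Hochberg adjusted p of 0.145 for those 11. The log2 ratio of Socs3 copy 2 to copy 1 was -1.11 in heat and 1.23 in control. For Nfkb2 it was -1.25 in heat and -0.035 in control, and for c3 copy 2 against copy 1 it was -0.10 in heat and -1.45 in control. The ratios overlapped for ATG5, TANK, Polr3e, SOCS2 and GABARAPL copy 2. Reads of near-identical copies may be split between them by the counting, so the value of a single copy is uncertain.

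The members brought in by the KEGG class alone were mostly genes of broad function. Of the 36 members with that class, 22 had NOD-like receptor signalling as their first listed pathway, 5 C-type lectin receptor signalling and 4 cytosolic DNA sensing. NOD-like receptors (NLRs) are cytosolic sensors, some of which build inflammasomes that activate caspase-1. In the NLR and inflammasome group 4 genes rose and 7 fell among 11 tested, against 41.9% lower among all tested genes, and the difference from the other groups was not tested. Its summed level was 64.7 ± 0.77 FPKM in heat and 96.5 ± 2.60 FPKM in control (SD, n = 3). Without the 2 copies of TXNIP the other 10 members summed to 43.9 ± 0.89 FPKM in heat and 27.2 ± 0.24 FPKM in control, the opposite direction. That higher sum rested on sugt1 alone, with 27.9 to 31.6 FPKM in heat, against 6.06 to 6.86 FPKM in control. It does not show a rise of the remaining members.

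The falls were led by mfn2 and TXNIP. mfn2, a mitochondrial fusion gene, had 2.13, 1.74 and 2.02 FPKM in heat, against 9.44, 9.34 and 10.8 FPKM in control, a 4.98-fold fall. TXNIP, a thioredoxin inhibitor that binds an inflammasome sensor in mammals and is known for its response to glucose, was listed in 2 copies. Copy 1 had 10.3, 9.61 and 10.1 FPKM in heat, against 39.3, 42.3 and 40.5 FPKM in control. Copy 2 had 9.64, 11.9 and 11.1 FPKM in heat, against 27.4, 27.7 and 30.9 FPKM in control. They fell 4.06-fold and 2.66-fold. NEK7 and brcc3, whose mammalian products promote inflammasome assembly, fell 2.66-fold and 2.67-fold, and the protein kinase gene pkn2 fell 2.17-fold. These last 3 genes had means between 0.335 and 0.611 FPKM in heat and between 0.79 and 1.27 FPKM in control.

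Sensor genes of the group moved both ways. nlrp1 copy 1 fell 2.05-fold, with 2.13, 2.41 and 1.63 FPKM in heat, against 3.81, 4.92 and 3.96 FPKM in control. nlrp1 copy 2 had 1.64, 1.41 and 1.66 FPKM in heat, against 0, 0.454 and 0.125 FPKM in control, a 13.5-fold rise. The ratio of its 117 heat to 11 control counts was 8.32 (95% exact interval 4.48 to 17.1), and 5.57 without control replicate 1. The control counts were uneven, and the fitted rise was 6.39-fold without control replicate 1 and 27.7-fold without control replicate 2. Without control replicate 2 only 2 control counts were left, a ratio of 30.6 (95% exact interval 8.30 to 256). The gene under the symbol CASP1 had 0.529, 0.797 and 0.469 FPKM in heat, against 0.165, 0.13 and 0.074 FPKM in control, a 5.93-fold rise. Its description is that of a NACHT domain gene, as for nlrp1, so it is not shown to be caspase-1. Outside the members, a further nlrp1 row rose 2.15-fold, NLRC5 rose 3.91-fold and NLRP12 rose 3.71-fold, the last with overlapping groups. NLRP5 fell 2.06-fold, a Nod1 row fell 2.37-fold and most Nlrc3 rows fell, as given above. NLRC5 and NLRP5 have an uncharacterised description, so these names are uncertain. Too low to test were another Nod1 row, with 27 heat counts and 1 control count, and an Nlrp12 row, with 2 heat and 21 control counts. caspb, whose description is also uncharacterised, had 0.013, 0.014 and 0.03 FPKM in heat, against 0.118, 0.108 and 0.211 FPKM in control. From 4 heat and 28 control counts it was too low to test, and its ratio was 8.95-fold lower in heat (95% exact interval 3.13 to 35.1).

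sugt1, a co-chaperone of HSP90 that NLR proteins need for their stability in other species, was the most abundant gene of the group in heat. It had 31.6, 30.6 and 27.9 FPKM in heat, against 6.06, 6.86 and 6.78 FPKM in control, a 4.58-fold rise. Nlrx1, a mitochondrial NLR, rose 2.24-fold, with 5.43, 5.63 and 7.60 FPKM in heat and 2.94, 2.49 and 2.74 FPKM in control.

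**Figure D5:**
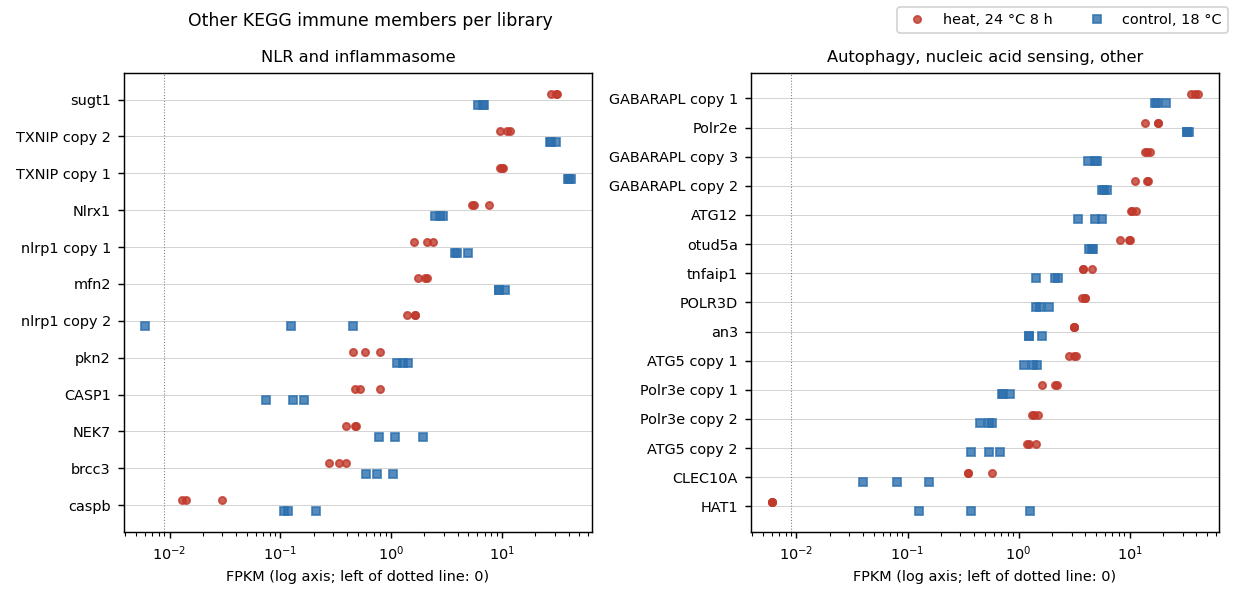
FPKM in each library (log axis) of the NLR and inflammasome members and of the autophagy, nucleic acid sensing and other members; circles are the 3 heat libraries, squares the 3 control libraries, and points left of the dotted line are 0. TXNIP, mfn2, nlrp1 copy 1, pkn2, NEK7, brcc3, caspb, Polr2e and HAT1 have the heat libraries on the left, and the heat libraries of sugt1 lie between 27.9 and 31.6 FPKM.

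The 6 autophagy genes that KEGG also places in NLR signalling all rose, by 2.09-fold to 3.06-fold, against 58.1% higher among all tested genes. GABARAPL, a cut symbol for genes of autophagosome membrane proteins, was listed in 3 copies. Copy 1 had 39.2, 41.4 and 35.6 FPKM in heat, against 17.6, 21.1 and 17.0 FPKM in control. Copy 3 had 15.3, 13.7 and 14.3 FPKM in heat, against 4.86, 4.18 and 5.06 FPKM in control, the largest rise of the group. Copy 2 had 14.7, 11.1 and 14.3 FPKM in heat, against 5.62, 6.25 and 5.85 FPKM in control. ATG12 and both copies of ATG5, whose products form the conjugate that lipidates these proteins, rose between 2.35-fold and 2.45-fold. With scaling by the median ratio 4 of the 6 calls ended, and those of ATG5 copy 1 and GABARAPL copy 3 held.

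Of the 6 genes of nucleic acid sensing, 5 rose and 1 fell, against 58.1% higher among all tested genes. POLR3D and both copies of Polr3e, subunits of RNA polymerase III, which can transcribe foreign DNA into a ligand for RNA sensors, rose between 2.36-fold and 2.65-fold. an3, named for an RNA helicase gene of Xenopus, rose 2.35-fold, and otud5a, a deubiquitinase gene, rose 2.05-fold. Polr2e, a subunit common to the nuclear RNA polymerases, fell 2.01-fold, with 17.9, 18.0 and 13.8 FPKM in heat, against 32.7, 32.8 and 34.5 FPKM in control. With scaling by the median ratio the calls of POLR3D, otud5a and both copies of Polr3e ended.

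The remaining members were CLEC10A, tnfaip1 and HAT1. CLEC10A, a lectin gene of macrophages in mammals, had 0.349, 0.581 and 0.354 FPKM in heat, against 0.08, 0.04 and 0.157 FPKM in control. It rose 4.21-fold, from 7 control counts, and in the authors' deposited table it had the largest adjusted p of the members, 0.0478. tnfaip1, a TNF-induced adaptor of a ubiquitin ligase, had 3.78, 3.81 and 4.59 FPKM in heat, against 2.25, 1.43 and 2.14 FPKM in control, a 2.11-fold rise. Scaling by the median ratio ended both calls (limma-voom adjusted p = 0.131 and 0.288). HAT1, a histone acetyltransferase gene, was listed at 0 in the 3 heat libraries and at 1.28, 0.128 and 0.374 FPKM in control. On the floor of 3 counts, with its control counts taken as exact, it was at least 5.97-fold lower in heat. The bound was 3.57-fold without heat replicate 1. It was 2.55-fold without control replicate 1, which held 10 of its 14 control counts. This last value rests on 4 control counts, whose own counting error it leaves out.

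Listed markers of blood and immune cells were mostly higher in heat, as were 58.1% of all tested genes. Of 8 macrophage markers 2 were listed under the exact symbol, MRC1 and CD163 in 4 copies. All but 1 of these 5 rows, a CD163 copy too low to test, rose. The summed level of the 5 was 7.49 to 10.1 FPKM in heat and 0.389 to 0.666 FPKM in control. Most of the heat sum came from 1 CD163 copy, with 5.52 to 7.47 FPKM in heat from 101 heat and 4 control counts. The tested rows held only 1 to 4 control counts each. Of 5 neutrophil markers 3 were listed, mmp9, mmp13 and csf3r, all of which rose, with 6.39 to 6.75 FPKM in heat and 1.57 to 2.39 FPKM in control. Of 6 B cell markers only CD22 was listed, in 4 copies, of which 3 rose and 1 was too low to test, and which summed to 3.20 to 3.73 FPKM in heat and 0.351 to 0.8 FPKM in control. Of 8 T cell markers 2 were listed, the uncertain IL7R, which rose, and ZAP70, which was too low to test at 0.087 to 0.148 FPKM in heat and 0.204 to 0.573 FPKM in control. The macrophage marker csf1r stood in the list as csf1r1, a symbol not matched for the macrophage sum. This growth factor receptor gene fell, with 0.039, 0.063 and 0.052 FPKM in heat, against 0.355, 0.207 and 0.289 FPKM in control. Of 4 thrombocyte markers, THBS1 was listed and rose, with 2.03 to 2.40 FPKM in heat and 0.7 to 0.738 FPKM in control. None of the 6 erythrocyte, 6 endothelium and 8 hepatocyte markers was listed, so the liver identity of the libraries could not be checked against them. Levels of markers outside the list are not known here. The part of these cells in the changes of the immune genes was not tested.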

How the data were processed

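Per the labels' protocols, cDNA libraries were made from total RNA of rainbow trout liver. The submitters' processing notes name Bowtie2 2.2.8 and StringTie. The sources used here give no genome build, annotation or test of the authors. The deposited table holds whole-number read counts and FPKM per library, with the authors' log2 fold changes, p-values and adjusted p, per the file headers. In the table the largest adjusted p is 0.049875 and the smallest log2 fold change, ignoring sign, is 1.00019. The table is fixed-width text of 8 characters per column, so symbols and descriptions are cut, and 7 members have a symbol that fills the column. The 822 wrapped annotation lines were left out. Of the 60 member symbols, 21 stand in the RefSeq gene table of USDA_OmykA_1.1.

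The counts could not be machine-verified in this layout, so limma-voom (limma 3.58.1, R 4.3.3) was used in place of a count model. Libraries were scaled by totals derived from how counts relate to FPKM over the 451 genes that reached 200 counts and 5 FPKM in every library. Relative to control replicate 1 these totals were 1.55, 1.17 and 1.14 in heat replicates 1 to 3 and 0.999 and 1.02 in control replicates 2 and 3. A gene was tested if 3 libraries held 10 or more counts, with Benjamini-Hochberg adjustment over all 4766. The fit was tested on simulated data in which few genes changed, unlike this list, so that test does not cover its setting. Exact intervals and the floor of 3 counts cover counting error only, and reads are not independent molecules.

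The members and lists were chosen with earlier results of these data known. Named with values were the members taken by symbol and, of the others, the 10 with the largest fold change and the 10 with the highest level, plus the untested ones. The values of 1 member are not reported here. A few further members are given with their values because they complete a group. The lists of other pathway genes were regular expressions on symbols. From them 25 entries were removed on the identity of the gene after directions had been seen, 22 of them higher in heat. Ratios and intervals were computed with scipy 1.17.1 and pandas 2.3.3 under Python 3.11.15, and plots with matplotlib 3.10.9. The alternatives were scaling by TMM or by the median ratio, testing without the count filter, limma on log2 FPKM, fitting with a replicate block, 1 gene per symbol, and each library left out in turn.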

Additional observations from a re-analysis of the deposited data

How the results depend on the processing

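The 58 rises and 13 falls of the tested members stayed at these counts with TMM scaling, with limma on log2(FPKM + 0.1) or log2(FPKM + 1), with the replicate block and without any single library. Of all 4766 tested genes, 151 lost their call with TMM and at most 12 in any of the other settings just named. All had been selected as changed in these same libraries, so the stability is not particular to the members. No member reversed in any alternative. Scaling by the median ratio presumes that few of the listed genes changed or that rises and falls balance. All listed genes had been selected by the authors as changed, so the first cannot hold, and the second was not tested. With scaling by the median ratio 39 members rose, 13 fell and 19 lost their call, and over all genes 1733 rose and 1996 fell. The median log2 fold change of all tested genes was 0.24 with that scaling and 0.64 with TMM, against 1.13. The median over the members was 0.456 with the median ratio, 0.862 with TMM, 1.27 with log2(FPKM + 0.1), 0.895 with log2(FPKM + 1) and 1.25 with 1 gene per symbol, and 1.30 to 1.42 without single libraries. Over all tested genes the median was 1.05 with log2(FPKM + 0.1), 0.467 with log2(FPKM + 1) and 1.12 with 1 gene per symbol. Without single libraries it was 1.11 to 1.16. With log2(FPKM + 1), 7 members changed at least 4-fold, since the added 1 shrinks the change of low genes. The share of all tested genes at 4-fold was not computed in that setting. Without a count filter 60 members rose and 16 fell, against 57.1% higher among all genes. With 1 gene per symbol 43 rose and 12 fell, against 57.7% higher among all genes so chosen.

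The labels do not say whether replicate numbers pair the libraries. Same-numbered heat and control libraries deviated with correlations of 0.0267, 0.0116 and -0.0093 over 4766 genes. Differently numbered ones had -0.0414 to 0.0301. No deviation shared by number was seen, which does not settle whether the libraries were paired. With the replicate block 25 members changed at least 4-fold, against 26 without it. The share of all tested genes at 4-fold was not computed with the block. The median with the block was 1.37 over the members and 1.13 over all tested genes. Neither edgeR nor DESeq2 was run, for the reason given with the methods. The exact intervals computed for members with few counts in a group are wide.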
